A study of Mus musculus with 3 samples.

Results

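Mature sperm draw much of their energy from glycolysis along the tail, and several steps of the pathway are run there by enzymes that only male germ cells make. These germ cell forms arose from genes that all cells use, either by duplication of the whole gene, as for *Ldhc*, or by copying of a spliced mRNA back into the genome, as for *Pgk2*, which has no introns. The genes described here were 10 glycolysis genes chosen by name: the germ cell forms *Gapdhs*, *Pgk2*, *Ldhc* and *Eno4*, their somatic paralogs *Gapdh*, *Pgk1*, *Ldha* and *Eno1*, and *Hk1* and *Tpi1*, which have no partner in the list. They are 10 of 21757 protein-coding genes with a canonical coding transcript in the GENCODE vM39 annotation, and 1 of them, *Pgk2*, is intronless.

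RNA contacts of endogenous Tra2β were mapped by iCLIP in testes of adult wild type mice, in 3 biological replicates and 1 group, with no other genotype, treatment or time. Tra2β is a splicing activator that binds GAA-rich RNA. In iCLIP, proteins are joined to bound RNA by ultraviolet light and recovered with an antibody, here a polyclonal one to Tra2b, and reverse transcription ends next to the joined base, so that each cDNA marks a contact. Cells had been released by mincing, the labels give the cell type as mixed, and no control library was analysed here. A crosslink below is 1 unique cDNA at 1 nucleotide on the strand of the gene, and the libraries held 348033, 619571 and 488719 of them in replicates 1, 2 and 3. A count of 0 allows up to 3 counts, which is 8.62, 4.84 and 6.14 CPM (crosslinks per 1000000 of the library) in the same order.

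Replicate 2 stood apart. Only 13.1% of its crosslinks lay in canonical exons of protein-coding genes, against 27.4% in replicate 1 and 38.6% in replicate 3, so counts are given per library for the main results, and exonic values over the summed libraries rest mostly on replicates 1 and 3, except for *Eno4*. Spermatid, spermatocyte and early germ cell markers held 1855, 619 and 349 exonic crosslinks over the 3 libraries in the 7, 5 and 5 genes of each list. Of the 349, *Ddx4* alone had 299, and *Zbtb16* had only 1. Sertoli markers held 147 crosslinks in 5 genes, of which *Clu* had 115 and *Amh* 0, and Leydig markers held 94 in 5 genes. The 3 peritubular and vascular markers held 19, and 3 of 5 immune and blood markers were at 0. A crosslink count rises with the amount of an RNA as well as with contact to Tra2β. In mixed cells, more cells of a type and more RNA per cell cannot be told apart either.

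Most crosslinks fell in 4 of the 10 genes. *Hk1*, *Ldhc*, *Gapdhs* and *Pgk2* held 751 of the 808 exonic crosslinks of the set (92.9%), while *Gapdh* and *Pgk1* had none. The 30 nt exonic window with the most crosslinks in each of these 4 genes is printed below to show what RNA was contacted, 5′ to 3′ in the sense of the mRNA, as DNA letters of GRCm39, with every GAA in capitals.
Hk1 exon 3: gcaggtGAAccacgaGAAgagtcaGAAcgt
Ldhc exon 4: ttgacctgctccaacgtaatgtcgctatca
Gapdhs exon 6: gcacatatttcatctggtgccaggcgtgtg
Pgk2 exon 1: gtataccatctggttggatgggcttggact
All 4 windows are coding. The *Hk1* window (chr10:62140560-62140589, minus strand) held 7, 0 and 14 crosslinks in replicates 1, 2 and 3 and contains 3 GAA, with purines at 70.0% of its bases. The *Ldhc* window (chr7:46519098-46519127, plus strand) held 6, 0 and 8 and the *Gapdhs* window (chr7:30432566-30432595, minus strand) 4, 2 and 16, and neither contains GAA. The *Pgk2* window (chr17:40518481-40518510, minus strand) also lacks GAA and held only 3, 0 and 3, so crosslinks on that mRNA were spread out. The densest windows of *Eno4*, *Tpi1*, *Ldha* and *Eno1* held 1 to 3 crosslinks in all and are not printed.

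The germ cell lactate dehydrogenase *Ldhc* interconverts pyruvate and lactate in sperm. Its exons held 82, 10 and 91 crosslinks in replicates 1, 2 and 3. Divided by exonic length these were 147, 10.1 and 117 CPM per kb, with a mean of 91.4 ± 72.0 (SD, n = 3), which placed it at rank 78 of 21757 genes. *Gapdhs* encodes the sperm glyceraldehyde-3-phosphate dehydrogenase that is bound to the fibrous sheath of the tail. It had 38, 25 and 69 exonic crosslinks, or 74.9, 27.7 and 96.9 CPM per kb (66.5 ± 35.4, SD, n = 3, rank 140). Replicate 2 was the lowest library for both genes, but far more so for *Ldhc*.

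*Hk1* encodes hexokinase 1, which feeds glucose into glycolysis and has alternative 5′ exons used in male germ cells. It held the most crosslinks of the set, 109, 23 and 211, on the longest mRNA, giving 73.2, 8.67 and 101 CPM per kb (60.9 ± 47.3, SD, n = 3, rank 158). *Pgk2*, the germ cell phosphoglycerate kinase that takes over when the X-linked *Pgk1* is silenced in meiosis, had 36, 5 and 52 crosslinks, or 63.6, 4.96 and 65.4 CPM per kb (44.7 ± 34.4, SD, n = 3, rank 259). The ranges of these 4 genes overlapped, and their order changed between libraries, with *Ldhc* highest in replicates 1 and 3 and *Gapdhs* highest in replicate 2.

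The remaining genes with exonic crosslinks lay lower. *Eno4*, an enolase needed for sperm motility, had 5, 11 and 12 exonic crosslinks, or 4.86, 6.01 and 8.31 CPM per kb (SD 1.76, n = 3, rank 2605). Among the 8 genes with exonic crosslinks, it was the only one whose level was not lowest in replicate 2. *Ldha*, the lactate dehydrogenase subunit of muscle and many other tissues, had 6, 1 and 5 crosslinks (6.11 ± 4.93, SD, n = 3). *Tpi1*, triosephosphate isomerase, had 5, 0 and 7 (5.95 ± 5.15), and *Eno1*, the enolase of most tissues, had 1, 1 and 3 (1.54 ± 1.02). *Eno4*, *Ldha* and *Tpi1* did not differ beyond their spread, and in replicate 2 the level of *Eno4* (6.01) exceeded that of *Pgk2* (4.96).

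**Figure D1:**
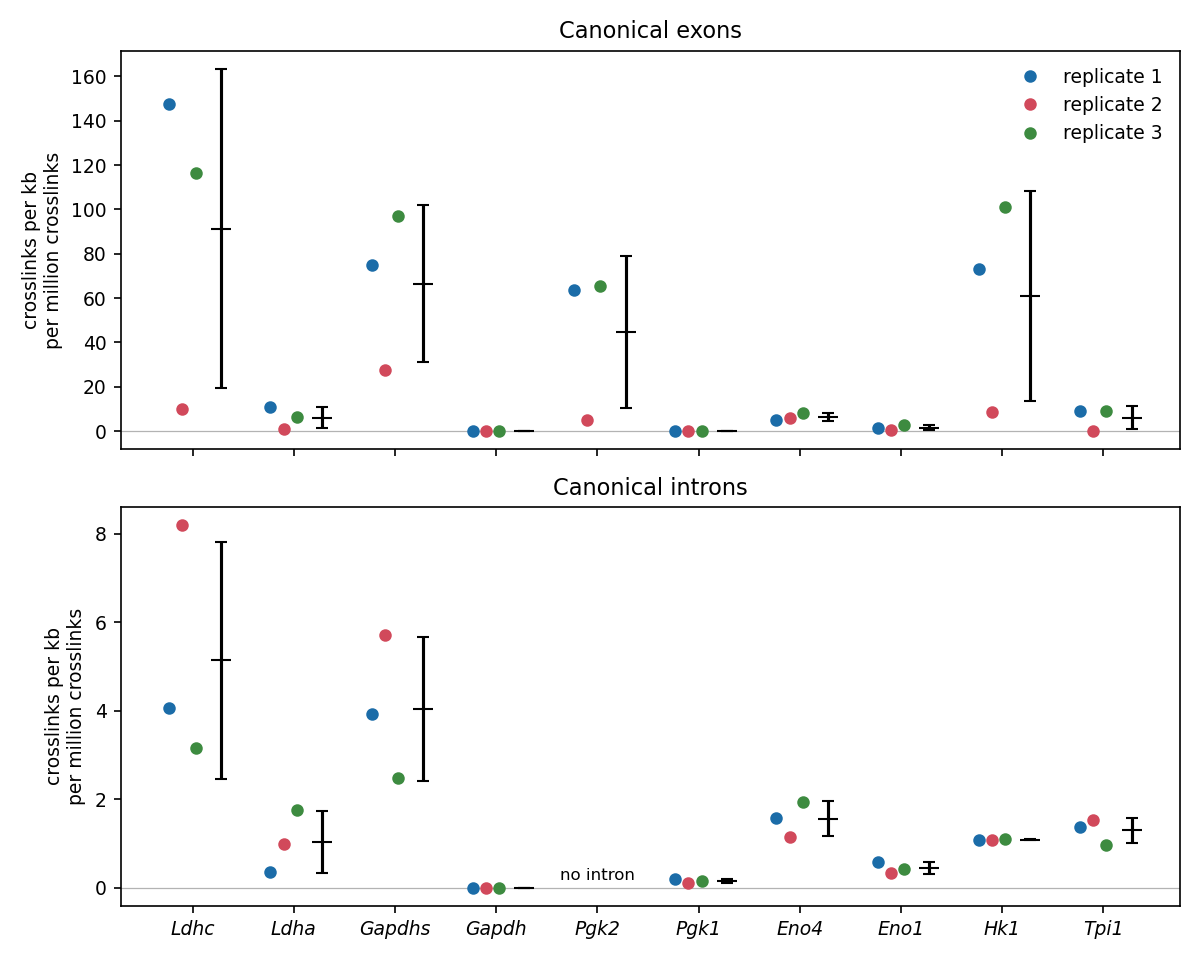
Crosslinks in CPM per kb in canonical exons (top) and introns (bottom) of the 10 genes, with 1 point per library and the mean ± SD (n = 3) in black. *Ldhc*, *Gapdhs*, *Hk1* and *Pgk2* stood above the others in exons of replicates 1 and 3, and replicate 2 was highest in introns of *Ldhc* and *Gapdhs*.

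The drop in replicate 2 depended on the scale for *Gapdhs* but remained for *Ldhc*, *Hk1* and *Pgk2*. Scaled to the crosslinks in protein-coding exons, *Gapdhs* had 399, 308 and 365 crosslinks per 1000000, a spread of 46.1 around a mean of 357 (SD, n = 3). *Ldhc* still fell to 123 in replicate 2, from 860 and 482, *Hk1* to 283 from 1144 and 1118, and *Pgk2* to 61.5 from 378 and 275. *Eno4* on this scale was highest in replicate 2, at 135 against 52.5 and 63.6. With few crosslinks, *Ldha* (62.9, 12.3 and 26.5 in replicates 1, 2 and 3) and *Tpi1* (52.5, 0 and 37.1) stayed lowest in replicate 2, and *Eno1* (10.5, 12.3 and 15.9) did not.

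The first comparison was of germ cell forms with their somatic paralogs, which asks whether Tra2β contacts followed the germ cell gene of each pair. The 4 germ cell forms held 161, 51 and 224 exonic crosslinks in replicates 1, 2 and 3, and the 4 somatic paralogs 7, 2 and 8. In each pair the germ cell form had more crosslinks in all 3 libraries. *Gapdhs* had 132 and *Gapdh* 0 over the 3 libraries. Against the 3 counts that a total of 0 allows, the density of *Gapdhs* was 42.9-fold higher. The lower 95% counting bound of the density ratio was 34.4. *Pgk2* had 93 and *Pgk1* 0, a density 34.8-fold higher on the same basis, with a lower bound of 27.7.

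*Ldhc* and *Ldha* lie side by side on the plus strand of chromosome 7 and both have 8 exons and a CDS of 996 nt. *Ldhc* held 93.2%, 90.9% and 94.8% of the exonic crosslinks of the pair in replicates 1, 2 and 3 (95% Clopper-Pearson intervals 85.7 to 97.5, 58.7 to 99.8 and 88.3 to 98.3), against 50.2% of the exonic length. The density ratio over the summed counts was 15.2 (95% counting interval 8.47 to 29.9), with a mean log2 ratio of 3.50 ± 0.64 (SD, n = 3). *Eno4* held 28 of 33 exonic crosslinks of its pair, 84.8% (68.1 to 94.9) against 56.3% of the length, and the density ratio was 4.35 (1.66 to 14.4). In single libraries it held 5 of 6, 11 of 12 and 12 of 15 crosslinks, and in replicates 1 and 3 the lower bounds of 35.9% and 51.9% did not exclude the share of the length. Intervals cover counting error only, no p is given for a pair, and the smallest two-sided p of a sign-flip test over 3 libraries is 0.25.

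The somatic paralogs held more repeated sequence than the germ cell forms. *Gapdh* has 352 loci elsewhere in the genome that match its mRNA over at least 100 nt at 80% identity, *Ldha* 37, *Eno1* 22, *Tpi1* 13 and *Pgk1* 7, whereas *Pgk2*, *Ldhc* and *Eno4* have 0 and *Gapdhs* 1. The share of exonic positions whose downstream 32 nt occur only once in the genome was 23.9% for *Gapdh*, 23.9% for *Pgk1*, 45.5% for *Eno1* and 52.6% for *Ldha*, but 90.4% for *Gapdhs* and between 99.9% and 100% for the other 3 germ cell forms. How reads that fit several places had been treated was not given in the sources used here. Over unique positions alone, *Gapdhs* had 131 crosslinks in 1317 nt and *Gapdh* 0 in 339 nt. *Pgk2* had 93 in 1626 nt and *Pgk1* 0 in 437 nt. Against the 3 counts that a 0 allows, these were 11.2-fold and 8.33-fold by density, without the counting error of the germ cell form.

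For the lactate dehydrogenases the ratio over unique positions was 12.0 (5.95 to 28.2), from 183 and 8 crosslinks. For the enolases it was 2.47 (0.87 to 9.71), from 28 and 4, an interval that includes 1. In replicates 1, 2 and 3 the germ cell forms of these pairs had 82, 10 and 91 (*Ldhc*) and 5, 11 and 12 (*Eno4*) crosslinks at unique positions, and the somatic ones 5, 1 and 2 (*Ldha*) and 1, 0 and 3 (*Eno1*). The matching loci were also crosslinked, on the strand of the copy. Those of *Gapdh* had 9, 39 and 23 crosslinks over 352 loci with 369638 aligned nt, while *Gapdh* itself had 0 in 1420 exonic nt. Those of *Eno1* had 5, 11 and 8 in 21507 nt, against 5 in the 2293 exonic nt of *Eno1* over the 3 libraries. Those of *Ldha* had 2, 7 and 2 in 41914 nt, against 12 in the 1588 exonic nt of *Ldha*, and those of *Pgk1* 2 in 7688 nt. The loci are far longer than the exons of these genes, so the counts do not compare as densities. The introns of *Gapdh* (2500 nt) had 0 crosslinks, against 76 over the 3 libraries in those of *Gapdhs* (12445 nt). The introns of *Pgk1* (14775 nt) had 1 in each library, and *Pgk2* has no intron to set beside them. The part of repeated sequence in the ratios beyond these values was not tested.

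**Figure D2:**
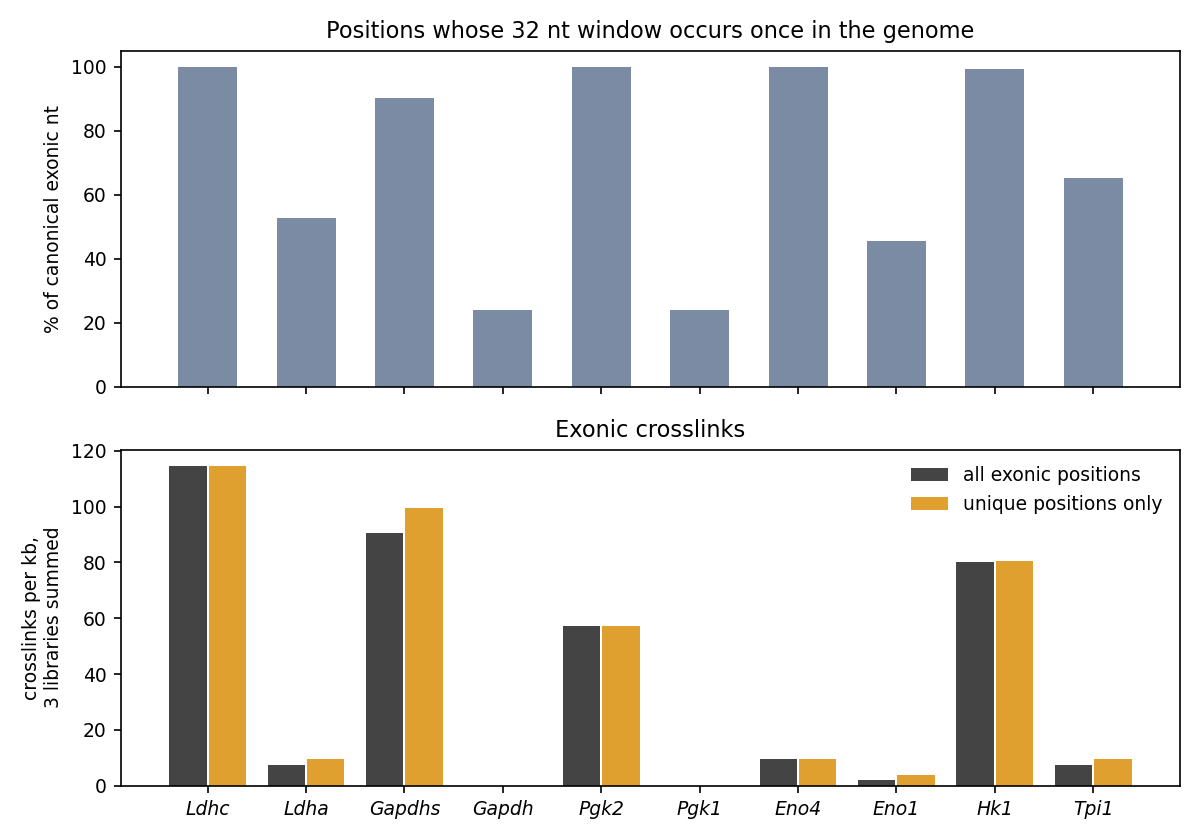
Share of canonical exonic nucleotides whose 32 nt window occurs only once in the genome (top) and exonic crosslinks per kb over the 3 summed libraries (bottom), counted over all positions and over unique positions. *Gapdh* and *Pgk1* stayed at 0 on both counts, and *Ldhc*, *Gapdhs*, *Pgk2* and *Hk1* changed little.

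The genes of a pair were compared for GAA, which Tra2β is known to bind. It occurred 1.82 times per 100 nt in the CDS of *Gapdhs* and 2.00 in *Gapdh*, 2.72 in *Pgk2* and 2.64 in *Pgk1*, 2.81 in *Ldhc* and 2.61 in *Ldha*, and 2.43 in *Eno4* and 2.00 in *Eno1*. Over all exonic positions, UTRs included, a GAA began within 30 nt of 81.6% in *Ldhc* and 64.4% in *Ldha*, of 77.4% in *Pgk2* and 68.3% in *Pgk1*, of 64.9% in *Gapdhs* and 61.1% in *Gapdh*, and of 70.3% in *Eno4* and 65.8% in *Eno1*. For GAAGA the shares were 12.6% in *Gapdhs* and 4.30% in *Gapdh*, 19.1% in *Ldhc* and 16.4% in *Ldha*, 18.8% in *Pgk2* and 16.4% in *Pgk1*, and 11.5% in *Eno4* and 13.3% in *Eno1*. The CDS of the *Gapdhs*, *Pgk2*, *Ldhc* and *Eno4* pairs were 71.6%, 79.3%, 73.7% and 58.9% identical over aligned bases, and the longest identical stretch in any pair was 22 nt, shorter than the 32 nt window used above.

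The second comparison was of exons with introns of the same gene. Exons are present in spliced mRNA as well as in its precursor, so this ratio rises with the amount of mature mRNA as well as with contact, and these cannot be told apart here. Of the 9 spliced genes, 7 had the 10 crosslinks needed, and *Gapdh* (0) and *Pgk1* (3) did not. *Hk1* and *Gapdhs* were called higher in exons in all 3 libraries (two-sided exact binomial test per library, Benjamini-Hochberg over all genes). Over all 9224 genes tested 26.9% were called higher and 0.0217% lower, so 2 of 7 is near the share of all genes. None of the 7 was called lower, also at an unadjusted p under 0.05.

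*Hk1* had 25, 45 and 36 intronic crosslinks beside its 109, 23 and 211 exonic ones. Its density in exons over introns was 6.08, 3.02 and 6.51 on the log2 scale (mean 5.21 ± 1.90, SD, n = 3), with a largest adjusted p of 6.84e-11 in the exact test. The intronic level was 1.07, 1.08 and 1.09 CPM per kb, nearly equal in the 3 libraries, and replicate 2 was low in exons only. *Gapdhs* had 17, 44 and 15 intronic crosslinks and log2 ratios of 4.23, 2.29 and 5.26 (mean 3.93 ± 1.51), with a largest adjusted p of 1.33e-07 in the exact test. For *Gapdhs* replicate 2 was both lowest in exons and highest in introns.

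*Ldhc* passed the test in replicates 1 and 3 and missed it in replicate 2. Its introns held 22, 79 and 24 crosslinks, so that exons held 78.8% (95% interval 69.7 to 86.2) of its crosslinks in replicate 1 and 79.1% (70.6 to 86.1) in replicate 3, but 11.2% (5.52 to 19.7) in replicate 2. The exonic share over all spliced protein-coding genes was 42.4%, 26.5% and 54.9% in the same order. The log2 ratios of *Ldhc* were 5.16, 0.36 and 5.19, with adjusted p of 5.18e-62, 0.627 and 1.35e-69 in the exact test. Without replicate 2, *Ldhc* (mean log2 ratio 5.17) and *Ldha* (3.20) were called as well, and without replicate 1 *Eno4* was (2.28). The calls over all genes rose too, to 3701 of 7506 genes higher without replicate 2 and 3091 of 8365 without replicate 1, from 2478 of 9224.

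The other genes had fewer crosslinks. *Eno4* had 14, 18 and 24 intronic crosslinks, more than in its exons in every library, yet over much longer sequence, and its log2 ratios were 1.71, 2.42 and 2.13, with adjusted p of 0.0839, 0.000457 and 0.00047 in the exact test. *Ldha* had log2 ratios of 4.48, 0.49 and 1.92 from 25 crosslinks in all, *Eno1* 1.37, 1.37 and 2.60 from 11, and *Tpi1* 2.26, -1.93 and 2.71 from 16. The median over the 7 genes was 2.30, against 2.41 over all genes tested.

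**Figure D3:**
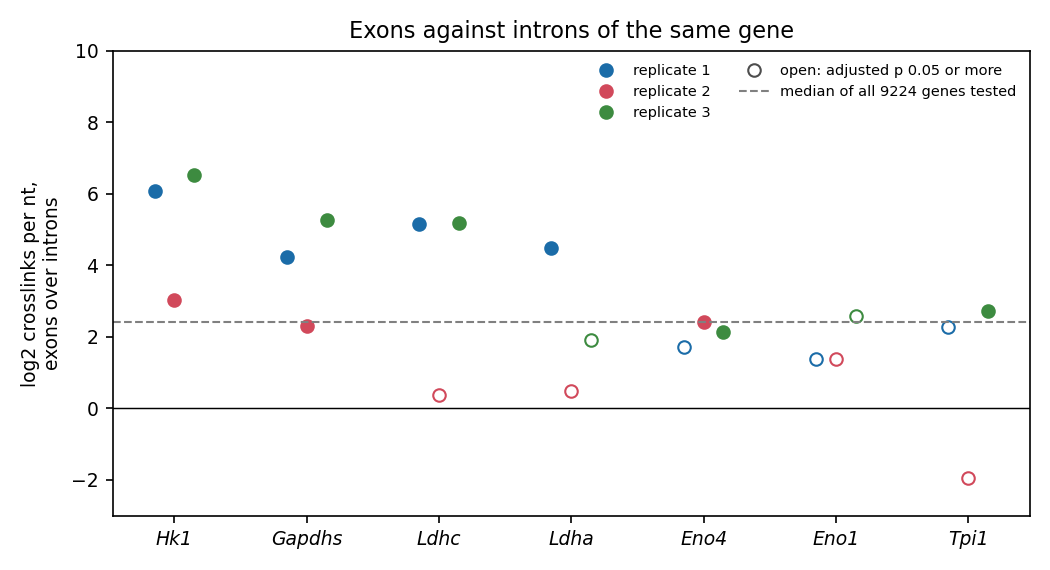
Log2 ratio of crosslinks per nucleotide in exons over introns for the 7 genes tested, by library, with filled points where the adjusted p was under 0.05. The 3 points of *Hk1* and of *Gapdhs* are filled, and *Ldhc* drops from above 5 to 0.36 in replicate 2. The dashed line is the median of all 9224 genes.

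In *Ldhc* and *Gapdhs*, most intronic crosslinks of replicate 2 lay in 1 intron of each gene. These introns were looked up after their values were seen. Intron 2 of *Ldhc* (4513 nt) held 2, 49 and 4 crosslinks in replicates 1, 2 and 3, and a stretch of 500 nt in it (chr7:46511419-46511918) held 1, 36 and 1. Purines made up 76.6% of that stretch, and GAA occurred 2.80 times per 100 nt. Its densest 30 nt (chr7:46511620-46511649) had 12 crosslinks at 9 positions, all in replicate 2, and is shown with GAA in capitals for its purine content of 86.7%.
Ldhc intron 2: tgttaagagagggagaGAAaGAAgagcagg
Intron 4 of *Gapdhs* (3276 nt) held 9, 33 and 2 crosslinks, of which 11 in replicate 2 lay in the densest 500 nt, so they were more scattered. Because these crosslinks came mostly from 1 library, they have no replicate check.

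The third comparison was of single exons with the other exons of the same transcript. Of the 96 exons of the spliced genes, 51 belonged to the 4 genes with at least 20 exonic crosslinks, which were *Hk1*, *Ldhc*, *Gapdhs* and *Eno4*. None of the 51 was called in all 3 libraries (exact binomial test, Benjamini-Hochberg), and none had an unadjusted p under 0.05 in the same direction in all 3. Over all 58715 exons tested, 0.215% were called higher and 0.346% lower. With the libraries pooled, 12 exons of these genes were called, and over all genes 5655 of 58715 exons were.

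In *Hk1*, crosslinks crowded the exons after the first. Exon 4 had the most per length, 6, 2 and 30 crosslinks in 120 nt, with a mean log2 ratio to the other exons of 1.89 ± 0.72 (SD, n = 3) that passed the exact test only in replicate 3 (adjusted p 9.72e-11), and exon 18, the last, had the most in all, 26, 5 and 39 in 1204 nt. Exons 2, 3 and 4 held 30, 33 and 38 crosslinks over the 3 libraries. Exon 1 of the canonical transcript (530 nt, of which 63 coding) had 1, 0 and 0, and it was called lower without replicate 2 (largest adjusted p 0.00163 in the exact test) and in the pool.

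Exons upstream of the canonical *Hk1* transcript were therefore looked up, after these values were seen. There, 7 merged exons with 1407 nt held 7, 1 and 17 crosslinks. The exon at chr10:62215594-62215687 had 2, 0 and 9 in 94 nt, that at chr10:62194115-62194209 had 1, 0 and 5 in 95 nt, and that at chr10:62188837-62188884 had 3, 0 and 2 in 48 nt. The longer exons of 642, 222, 181 and 125 nt had 0, 1, 2 and 0 in all. The density of the 7 exons was 17.8 per kb over the summed libraries, against 1.89 in canonical exon 1 and 1.61 in the rest of the upstream span. Of the 25 crosslinks, 24 (7, 0 and 17) lay in the 283 nt of the 4 upstream exons of 1 annotated transcript, which was picked for holding them.

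In *Ldhc*, exons 2 to 7 held between 127 and 226 crosslinks per kb over the summed libraries, and the most crosslinks fell in exon 8, with 13, 1 and 20 in 658 nt, of which 162 are coding. Relative to its length exon 8 was low, with a mean log2 ratio of -1.76 ± 0.44 (SD, n = 3) and adjusted p of 0.000252, 0.540 and 0.00620 in the exact test, and it was called lower without replicate 2. All but 1 of the crosslinks of this exon lay in its first part. Its first 280 nt, up to nucleotide 1220 of the mRNA, held 13, 0 and 20, and its last 378 nt held 0, 1 and 0, although 99.7% of the exon was unique. Position 1220 is the end of 1 other annotated coding *Ldhc* transcript, and 2 more end at 1226, while 14 end at 1598. This split was chosen after the profile was seen, and it gave 118 and 2.65 crosslinks per kb over the summed libraries.

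In *Gapdhs*, exon 6 had the most crosslinks, 6, 2 and 19 in 119 nt, with a mean log2 ratio of 1.18 ± 0.93 (SD, n = 3) and an adjusted p of 0.000123 in the exact test in replicate 3 alone. They crowded the start of the exon, where the printed window of 30 nt begins at the first base. Nucleotide 9 of the exon alone carried 2, 2 and 9 crosslinks in replicates 1, 2 and 3, and it was the only exonic position of the 10 genes crosslinked in all 3 libraries. Exon 1 had 1 crosslink in 130 nt, of which only 10.8% was unique, and exon 2 had 4, 3 and 1 in 238 nt that were 92.0% unique. Exons 3 to 11 held between 8 and 27 crosslinks each.

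*Pgk2*, with its single exon of 1626 nt, was crosslinked along nearly its whole length. Crosslinks fell in 30 of 33 bins of 50 nt, and the highest bins held 6. The CDS had 74.2% (95% interval 64.1 to 82.7) of them, against 76.9% of the length, with 23 of 36, 5 of 5 and 41 of 52 in replicates 1, 2 and 3, and 23 lay in the 3′ UTR. In *Ldhc*, *Hk1* and *Eno4* the CDS held more than its share of the length. That length includes UTR stretches of all these genes that held almost no crosslinks. In *Eno4*, the 3′ UTR of 681 nt held 1 crosslink. The CDS share was 89.6% (84.3 to 93.6) against 62.3% in *Ldhc*, 83.7% (79.3 to 87.4) against 64.3% in *Hk1* and 89.3% (71.8 to 97.7) against 62.8% in *Eno4*. In *Gapdhs* it was 93.9% (88.4 to 97.3) against 90.6%, and the interval includes the length share. With few crosslinks, the intervals of *Ldha*, *Tpi1* and *Eno1* also include theirs. Over all protein-coding genes the CDS held 78.1% of exonic crosslinks and 47.1% of the length. *Eno4*, with 28 crosslinks on 14 exons, had its most in exon 1 (0, 2 and 3).

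**Figure D4:**
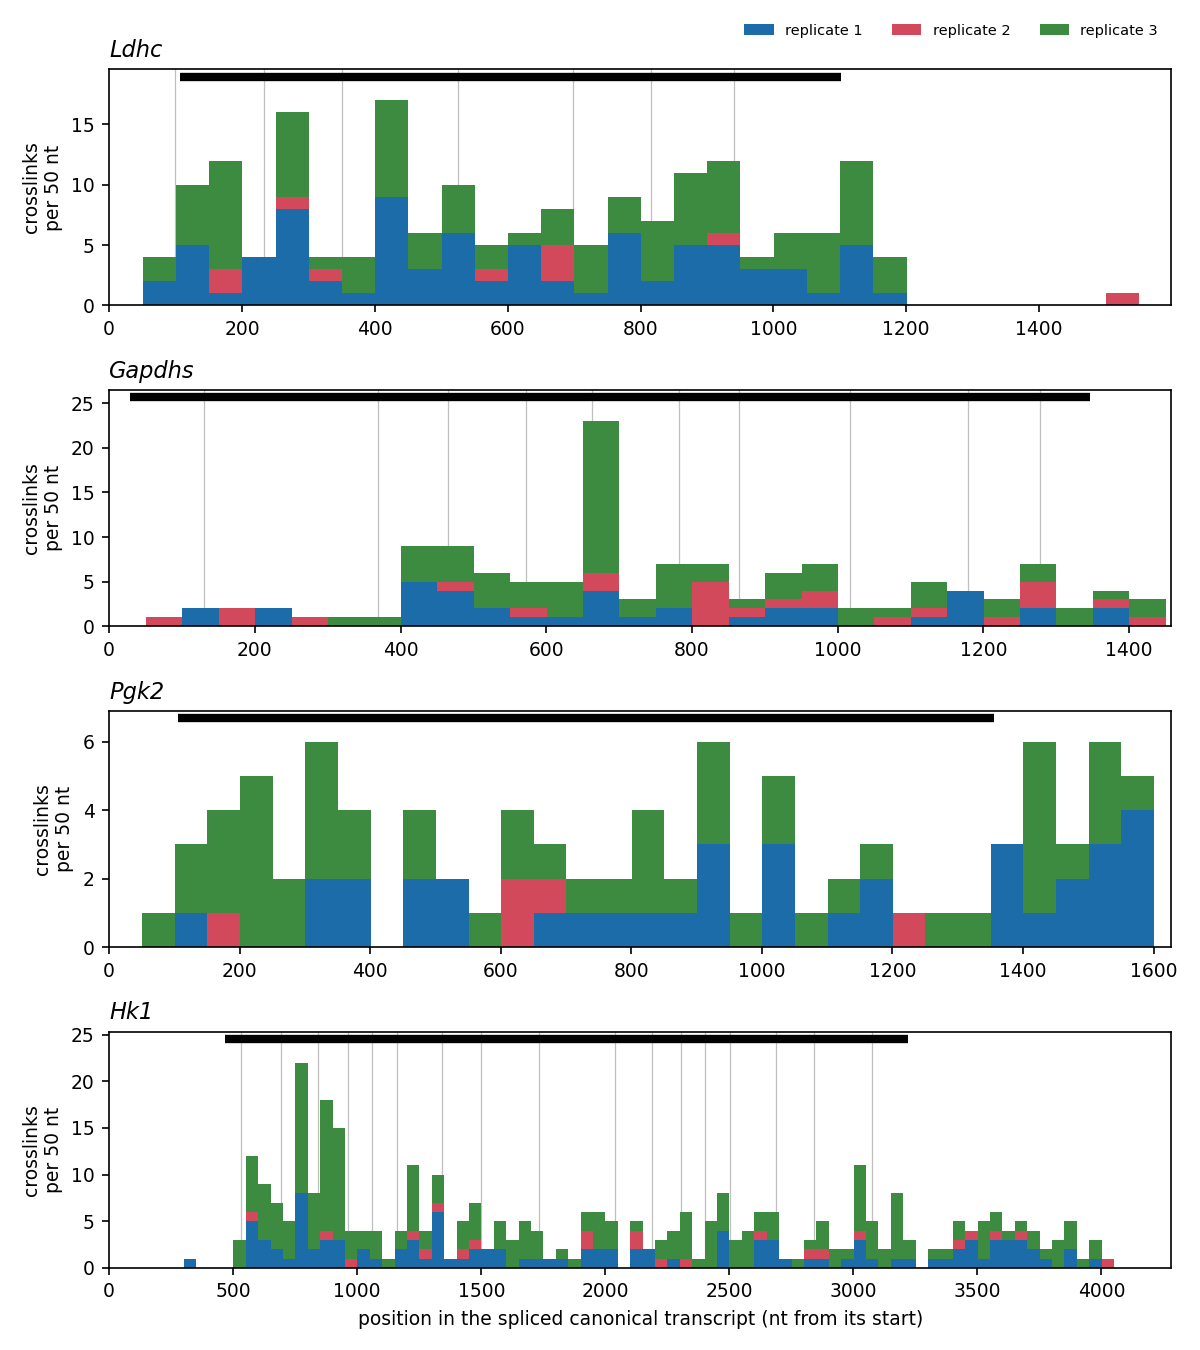
Exonic crosslinks per 50 nt along the spliced canonical transcripts of *Ldhc*, *Gapdhs*, *Pgk2* and *Hk1*, stacked by library, with exon junctions as grey lines and the CDS as a black bar. All but 1 of the *Ldhc* crosslinks lie before nucleotide 1220, all but 1 of the *Hk1* crosslinks lie after exon 1, and *Gapdhs* has a single high bin of 23 in exon 6.

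The genes also differed in how crosslinks sat relative to GAA. A GAA began within 30 nt of 79.9% of all 808 exonic crosslinks (95% interval 77.0 to 82.7), against 69.7% of all exonic positions of the 10 genes. These totals rest on unlike mixes of genes, since the positions include *Gapdh* (61.1%) and *Pgk1* (68.3%), which had no exonic crosslinks. In *Ldhc* the shares were 96.2% (92.3 to 98.4) of crosslinks against 81.6% of positions, and the share of crosslinks was 95.1%, 100% and 96.7% in replicates 1, 2 and 3. In *Hk1* they were 79.9% (75.2 to 84.0) against 68.0%, with 78.9%, 69.6% and 81.5% in single libraries. The positions compared, here and for the longer motif below, include the last 378 nt of *Ldhc* and exon 1 of *Hk1* (530 nt). These held 1 crosslink each, and shares without them were not counted. In *Gapdhs* (64.4% against 64.9%) and *Pgk2* (75.3% against 77.4%) the share of the sequence lay within the interval of the share at crosslinks. By library these were 63.2%, 76% and 60.9% in *Gapdhs* and 80.6%, 80% and 71.2% in *Pgk2*.

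The longer motif GAAGA, which overlaps GAA, was again above the level of the sequence in *Hk1* and *Ldhc*. It began within 30 nt of 30.6% (25.8 to 35.8) of the *Hk1* crosslinks against 15.5% of positions, with 29.4%, 26.1% and 31.8% in replicates 1, 2 and 3, and of 28.4% (22.0 to 35.5) against 19.1% in *Ldhc*, with 29.3%, 20% and 28.6%. In *Gapdhs* it was 8.33% (4.23 to 14.4) against 12.6% and in *Pgk2* 18.3% (11.0 to 27.6) against 18.8%, and both were highest in replicate 2, at 20% of 25 and 40% of 5 crosslinks, against 5.26% and 5.80% in *Gapdhs* and 11.1% and 21.2% in *Pgk2* in replicates 1 and 3. Motifs were searched on the mRNA strand only, crosslinks of a gene are not independent of each other, and a match is not a binding site.

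**Figure D5:**
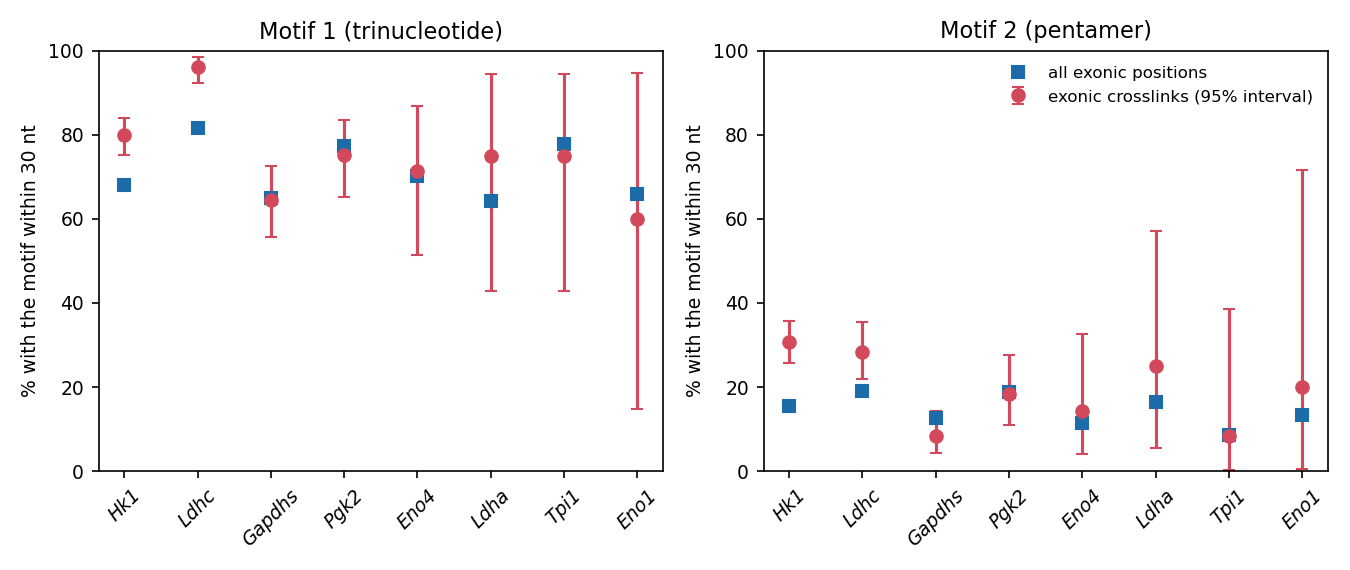
Share of exonic crosslinks (circles, 3 libraries summed, 95% Clopper-Pearson intervals) and of all exonic positions (squares) with GAA (left, motif 1) or GAAGA (right, motif 2) beginning within 30 nt, for the 8 genes with exonic crosslinks. The circles of *Hk1* and *Ldhc* lie above their squares with intervals that leave them out, and those of *Gapdhs* and *Pgk2* do not. The squares include the parts of *Hk1* and *Ldhc* that held almost no crosslinks.

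The fourth comparison was of intronless with spliced genes. *Pgk2* had 22.1, 3.08 and 31.98 crosslinks per kb in replicates 1, 2 and 3, and the median of the 9 spliced genes was 3.11, 0.630 and 4.06. The log2 ratio was 2.83, 2.29 and 2.98, with an SD of 0.36 (n = 3). That median is set by the weakly crosslinked genes. Against single spliced genes, *Pgk2* was below *Ldhc*, *Gapdhs* and *Hk1* in all 3 libraries. Over all genes the order was the opposite, with a median of 0 CPM per kb in 1345 intronless genes and 0.47 in spliced ones, and 31.8% and 65.1% of them had any exonic crosslink.

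Other genes around glycolysis were taken from a list of 47 that covers the remaining enzymes, pyruvate and lactate steps, and sugar and lactate transport. Of 24 that could be tested, 7 were called higher in exons than in introns and 0 lower (0 also at an unadjusted p under 0.05), against 26.9% higher over all genes, and their median log2 ratio was 2.62. They were the phosphofructokinases *Pfkm* (3.13 ± 0.69, SD, n = 3) and *Pfkp* (3.24 ± 0.61), the regulatory kinases *Pfkfb1* (4.63 ± 0.77), *Pfkfb2* (2.96 ± 0.58) and *Pfkfb4* (2.71 ± 0.29), pyruvate kinase *Pkm* (2.54 ± 0.88) and the glycerol-3-phosphate dehydrogenase *Gpd2* (4.58, 1.99 and 5.44 in replicates 1, 2 and 3), all on the log2 scale, with a largest adjusted p between 0.000108 and 0.0455 in the exact test. The highest exonic CPM, not divided by length, were those of the glucose transporter *Slc2a3* (113, 7 and 111 crosslinks), *Gpd2* (55, 10 and 100), the lactate transporter *Slc16a7* (41, 11 and 76), the fructose transporter *Slc2a5* (36, 5 and 58) and *Ldhal6b* (22, 7 and 73). Divided by length the order differed, with *Ldhal6b* (51.6 CPM per kb, mean of 3 libraries) and *Slc2a3* (47.4) highest and *Slc16a7*, with the longest exonic sequence of these 5, at 8.79. Exonic crosslinks totalled 3 or fewer for 20 of the 47 genes, among them 7 at 0. In the exon test, the last exons of *Gpd2* (3, 0 and 12 crosslinks in 3371 nt) and *Slc16a7* (21, 4 and 42 in 9030 nt) were called lower than the rest of their transcripts, with log2 ratios of -4.24 ± 0.80 and -2.29 ± 0.54 (SD, n = 3) and largest adjusted p of 0.00773 and 0.0397 in the exact test. Over all 58715 exons tested 0.346% were called lower. The tested exons of the list were not counted, so its own share is not given.

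The intronless genes of that list were the germ cell copies of spliced somatic genes, as *Pgk2* is. *Ldhal6b* is a lactate dehydrogenase copy, and its 22, 7 and 73 crosslinks compare with 36, 5 and 52 in *Pgk2*, fewer in replicate 1 and more in the others. *Pdha2*, the germ cell form of a pyruvate dehydrogenase subunit, had 19, 12 and 40 crosslinks, and its somatic counterpart *Pdha1* 0, 0 and 2. *Gk2*, a glycerol kinase copy, had 12, 0 and 24, against 0, 1 and 0 in *Gk*. The aldolase copies *Aldoart1* (4, 2 and 5) and *Aldoart2* (6, 2 and 11) differed less from *Aldoa* (2, 6 and 3). Unique positions were not counted for these genes.

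The gene nearest to each germ cell form in exonic level over the 3 libraries, by Euclidean distance on log2 values of CPM per kb plus 1, was *Rgs22* for *Gapdhs* (distance 0.088), *Csnk2a2ip* for *Pgk2* (0.11), *Paip2* for *Ldhc* (0.36) and *Nat10* for *Eno4* (0.10). The measure compares heights over 3 libraries and is a description.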

How the data were processed

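Adult wild type mouse testes were analysed by Tra2β iCLIP in 3 biological replicates. The deposited values are whole-number counts of unique cDNAs per crosslinked nucleotide and strand, which the authors made with the iMAPS pipeline. The submitters' processing notes name Trim Galore 0.6.7, STAR 2.7.9a, Bowtie 1.3.1 and UMI-tools 1.1.2. The counts were neither normalised nor pooled, and all sequence names and positions fitted GRCm39. cDNAs had been collapsed by molecular barcode, and intervals and floors cover counting error only. Crosslinks were counted by strand over exons and introns of the Ensembl canonical transcript (GENCODE vM39) with Python 3.11.15, pandas 2.3.3 and SciPy 1.17.1, and copies were sought with blastn 2.17.0. Exons were tested against introns (at least 10 crosslinks per gene) and against other exons (at least 20) by exact binomial tests per library, with Benjamini-Hochberg adjustment over all genes or exons, and a call needed an adjusted p below 0.05 with 1 direction in every library. Log2 ratios have 0.5 crosslinks added. Tested on simulated data, the exon-intron test (9224 genes) called 43 of 100 genes made 16-fold and 6 of 100 made 4-fold, and the exon test (58715 exons) 27 and 0 of 100, with no false call. The simulated counts were drawn independently and without clustering of crosslinks, so they do not give the false call rate of the real data. The genes and lists were chosen with earlier results of these data known. Named items were the 10 genes, the list's called, intronless and 5 highest genes, the leading exons and windows, and the nearest genes. Alternatives changed libraries, filters, transcripts, positions and scaling.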

Additional observations from a re-analysis of the deposited data

Results flagged for a closer look

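Crosslinks on the strand opposite to the canonical transcript lie outside the measurement above, and for *Gapdhs* and *Eno4* they were more than the 3 that a count of 0 allows. *Gapdhs* had 11, with 3, 6 and 2 in replicates 1, 2 and 3, and long non-coding genes are annotated opposite to it. *Eno4* had 6, with 0, 4 and 2, and *Hspa12a* overlaps its start on that strand. *Ldha*, *Hk1* and *Eno1* had 2, 1 and 1, and the other 5 genes had 0. Counts this small have no replicate check.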

How the results depend on the processing

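No paired analysis was possible because all 3 libraries belong to 1 group. Leaving out each library in turn gave 2 to 4 genes called higher in exons than in introns (2 in the report), while over all genes it gave 3091 of 8365, 3701 of 7506 and 2656 of 7816 without replicates 1, 2 and 3. It gave 0 to 2 single exons called (0 in the report). Pooling the libraries gave 6 genes and 12 exons, and over all genes and exons it called 6700 genes higher, against 2478, and 5655 exons, against 126 higher and 203 lower. Leaving out a library gave 402 to 771 exons called over all genes, and testing internal exons only gave 17. The fitted mean log2 ratio of *Gapdhs* over *Gapdh*, 6.32, moved to 4.38 over unique positions, 5.33 with a pseudocount of 1 and 8.51 with exons of all transcripts merged, and that of *Pgk2* over *Pgk1*, 5.62, to 3.56 over unique positions. Both rest on a count of 0, depend on the pseudocount and are no bound. The summed exonic level of the 10 genes was 618 CPM and became 2092 when scaled to crosslinks in protein-coding exons, by construction. No direction was reversed, and the other 49 values of these comparisons kept their side of the threshold or moved by less than the spread between libraries. Depth limits *Eno1*, *Ldha* and *Tpi1*, which had 5, 12 and 12 exonic crosslinks and were too few for the exon test.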

Other observations

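Positions shared between libraries were few even in the most crosslinked genes. The 10 genes had 270, 74 and 413 crosslinked exonic positions in replicates 1, 2 and 3, of which 33 were shared by replicates 1 and 3, 3 by replicates 1 and 2, and 3 by replicates 2 and 3. Of the 33, 14 lay in *Ldhc*, 13 in *Hk1* and 5 in *Gapdhs*, and 1 in *Pgk2*, which had 35 and 50 positions in those libraries.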
